A study of Oncorhynchus mykiss with 14 samples.

Results

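The 5 transcripts described here were grouped under sterol handling and small-molecule metabolism, and were measured in the eggs of rainbow trout (Oncorhynchus mykiss). They are the rows tmem97 (ENSOMYG00000033636), insig2 (ENSOMYG00000012001), ahcy (ENSOMYG00000002184), ggcx (ENSOMYG00000046605) and unm_sa821 (ENSOMYG00000003619), 5 of 64494 genes in the count tables. All 5 were among the 30919 genes detected with a mean normalized count above 1. The genes were chosen by the correlation of their level with survival, from the lists of the study. tmem97 was selected on survival of gynogenotes in the gynogenetic (G) eggs, and the other 4 on survival of normally fertilized embryos in the control (C) eggs. Those readouts are therefore given below as descriptions, without a test.

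Eggs of 7 females of the Rutki strain, 5 years old, F1 to F4 and F6 to F8, gave 2 libraries each, and a library came from a pool of 2 to 3 eggs of 1 clutch. Group C eggs were fertilized with trout sperm that had not been irradiated. Group G eggs, taken from the same clutches, were activated with UV-irradiated sperm of European grayling, for later duplication of the maternal chromosomes by a high hydrostatic pressure shock. Eggs of both groups were collected immediately after treatment, and the sources used here do not say whether the sequenced G eggs had received the shock. The labels give the genotype "XX, Doubled Haploids" for all samples, C eggs included. By the study's survival data, competence for gynogenesis was increased in clutches F1, F4, F7 and F8 and decreased in F2, F3 and F6. Survival of the C embryos was higher in F3, F4 and F6, called high here, and lower in F1, F2, F7 and F8, called low. The study reported no significant difference in this survival between the females, so high and low name its division of the clutches only. F4 was the only clutch in both favourable groups.

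A fish egg is stocked with messenger RNA by the mother, and the embryo lives on that store until its own genes are switched on. Cholesterol in animal cells is controlled at the endoplasmic reticulum. There, proteins of the INSIG family hold back the activation of sterol synthesis genes when sterols are plentiful, while other proteins steer cholesterol between membranes. In mammals TMEM97, also known as the sigma-2 receptor, is a membrane protein of the endoplasmic reticulum that binds the cholesterol transporter NPC1. Adenosylhomocysteinase, encoded by ahcy, removes the by-product of methylation reactions, and gamma-glutamyl carboxylase, encoded by ggcx, uses vitamin K to modify glutamate residues of clotting factors and matrix proteins.

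The assigned counts ranged from 34535902 to 57014149 in the C and from 45860801 to 67557305 in the G libraries. Between 99.7% and 99.8% of the non-zero gene counts of a library were even numbers, so counts came in steps of 2, and counting error is larger than the printed counts imply. Depth ranges overlapped between the groups of clutches in each comparison. Of 9 egg markers only ccnb1, which encodes cyclin B1, could be matched to a row, and its level lay between 82523 and 158794 normalized counts. None of the 8 follicle cell, 5 blood and 7 sperm markers was matched, so a check for other cell types is void. In such bulk samples, RNA of the eggs and RNA of any other cells in the pool cannot be told apart.

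Levels below are counts divided by DESeq2 size factors over the 14 libraries, called normalized counts. No level is compared between genes, because the lengths of the counted transcripts are not in the files. In RefSeq's annotation of USDA_OmykA_1.1, 3 of the 5 genes could be matched, all protein-coding. ggcx and unm_sa821 were not matched, so no position or copy is given for them. tmem97 lies on chromosome 27 at 43556576 to 43558533, insig2 on chromosome 3 at 64908646 to 64914396 and ahcy, there named LOC110527644, on chromosome 7 at 30561586 to 30578870. RefSeq also lists a gene named ahcy on chromosome 17, at 39190266 to 39208968. Reads shared between the copies could have been lost or split in counting, so the level of ahcy is uncertain in that respect.

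tmem97 differed widely between the clutches and little between the 2 pools of a clutch. Its level in the C eggs was 172 normalized counts in F7, 93.1 in F8, 74.4 in F4, 59.7 in F1, 13.3 in F3, 4.37 in F6 and 0 in F2. The G eggs held 138 in F7, 93.1 in F8, 57.9 in F4, 45.3 in F1, 12.9 in F3, 5.65 in F6 and 0 in F2. F7, F8, F4, F1 and F3 thus came in the same order in both pools, above F6 and F2. The count of 0 in both F2 libraries allows up to 6 counts, or 3 steps of 2, which is 5.92 normalized counts in the C and 6.97 in the G library. F6, with 4 and 8 counts, lay in the same range and cannot be ordered against F2 at this depth.

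The clutches with increased competence held the 4 highest levels of tmem97 in each pool. Among the G eggs, which chose the gene, the 4 clutches of increased competence had a mean of 83.6 ± 41.5 (SD) and the 3 of decreased competence 6.18 ± 6.45 (SD). The groups did not overlap, as for 1.49% of all genes in that direction, and r with survival of gynogenotes was 0.957. No other member had an absolute r above 0.9 in this readout, a threshold passed by 0.176% of genes. Among genes with a mean of at least 10 normalized counts, the gene just outside it, ENSOMYG00000047525, had r = 0.899.

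In the C eggs of the same clutches, which the choice of tmem97 did not use, the level was 99.8 ± 50.1 (SD, n = 4) against 5.91 ± 6.81 (SD, n = 3), 16.9-fold higher with increased competence. The groups did not overlap, the lowest of the 4 at 59.7 and the highest of the 3 at 13.3, as for 2.82% of all genes in that direction. The exact permutation test of the means gave p = 0.0286, which is the smallest p that groups of 4 and 3 allow. These pools share their females with those that chose the gene, so they repeat the measurement in other eggs and not in other females.

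Across all genes, the difference of tmem97 in the C eggs was 4.00 ± 1.06 (SE) on the log2 scale, and edgeR's quasi-likelihood test gave an unadjusted p of 0.00273 and an adjusted p of 0.999. Only 0.00325% of the genes passed that test. DESeq2's Wald test placed the gene on the other side of the threshold, with 4.05 ± 0.89 (SE) and an adjusted p of 0.0057. That test was passed by 0.192% of the genes. Neither test is independent support for tmem97, since its choice used the same females. Without 1 clutch at a time the edgeR value lay between 3.43 and 5.46. With the study's clusters as groups, F4, F7 and F8 against F1, F2, F3 and F6, it was lower, at 2.52 ± 1.12 (SE). The unadjusted p of edgeR's test was then 0.044 and the adjusted p 0.868.

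In the C eggs, r of tmem97 with survival of gynogenotes was 0.937, with an exact permutation p of 0.000595 and an adjusted p of 0.905 over 30749 genes. Spearman's coefficient was 0.964, with an exact permutation p of 0.00278. Without the 2 clutches farthest from the median of survival, r was 0.910, and leaving out 1 clutch at a time gave r from 0.923 to 0.956. An absolute r above 0.9 was reached by 0.537% of all genes in these libraries. No gene passed the adjusted threshold in either pool (0%). An unadjusted permutation p below 0.05 was found for 1659 of 30749 genes in the C and 771 of 30707 in the G eggs. Counts of that size are near or below what a threshold of 0.05 gives without any relation to survival. The small number of clutches sets a lower limit to an exact permutation p. With adjustment over all tested genes, a pass would have needed many genes at that limit. The adjusted p of these correlations therefore cannot decide on a single gene such as tmem97. The unadjusted p-values of tmem97 are no independent support, since the same survival chose the gene in the G eggs of these clutches. The C and G levels of tmem97 had r = 0.990 over the 7 females.

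The level of tmem97 showed no such separation by survival of the C embryos. Its C level was 30.7 ± 38.1 (SD, n = 3) with high and 81.2 ± 71.8 (SD, n = 4) with low survival, and the ranges overlapped (exact permutation p = 0.343). Its G level was 25.5 ± 28.3 against 69.1 ± 59.6 with the same n (exact permutation p = 0.371).

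**Figure D1:**
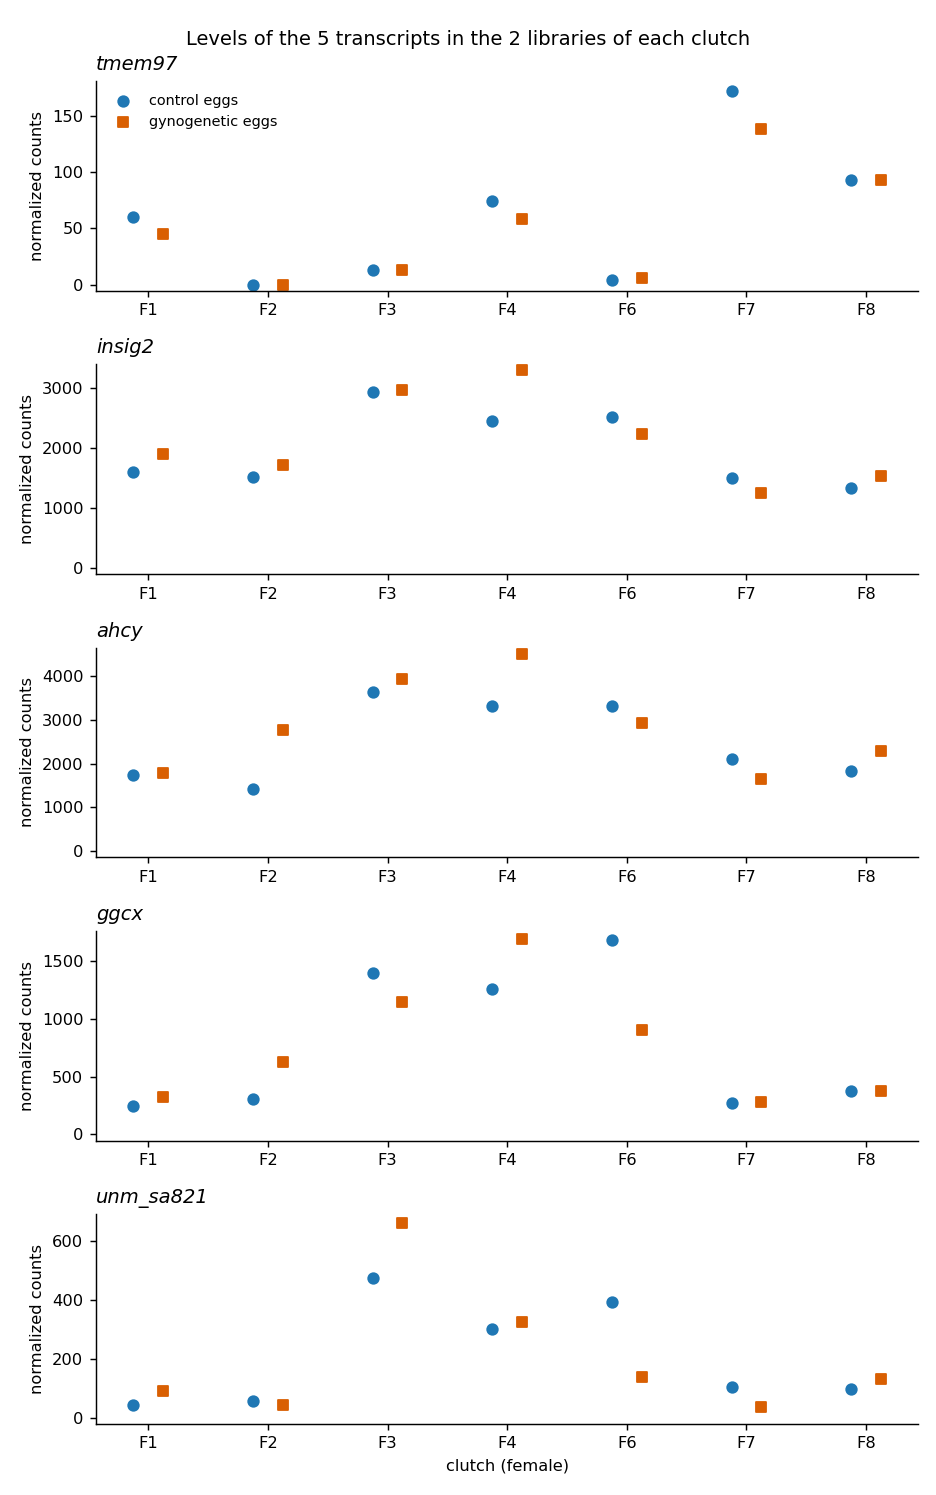
Normalized counts (vertical axis, linear) of the 5 transcripts in the C (circles) and G (squares) library of each clutch (horizontal axis). tmem97 was highest in F7 and 0 in F2 in both pools, while the other 4 were highest in F3, F4 and F6.

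insig2, whose product holds the SCAP-SREBP complex in the endoplasmic reticulum when sterols are plentiful, was one of the 4 genes that were high in the clutches with high survival of the C embryos. Its level in the C eggs, which chose it, was 2943 in F3, 2449 in F4 and 2522 in F6, against 1598 in F1, 1511 in F2, 1495 in F7 and 1336 in F8. The groups did not overlap, with means of 2638 ± 267 (SD, n = 3) and 1485 ± 109 (SD, n = 4). Its r with survival was 0.902, the closest of the 4 to the threshold. Among genes with a mean of at least 10 normalized counts, the gene just outside, ENSOMYG00000014875, had r = -0.900. In these libraries 3.84% of all genes were higher without overlap and 0.745% had an absolute r above 0.9.

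The G levels of insig2 were 2977 in F3, 3298 in F4 and 2234 in F6, against 1901 in F1, 1720 in F2, 1254 in F7 and 1540 in F8. The 3 clutches with high survival were again above the other 4, with 2836 ± 545 (SD, n = 3) against 1604 ± 276 (SD, n = 4), or 1.77-fold. In that pool 3.79% of all genes were higher in the high survival clutches without overlap.

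ahcy, the only member of the methionine cycle list, followed the same division. Its level in the C eggs was 3636 in F3, 3312 in F4 and 3310 in F6, against 1731 in F1, 1409 in F2, 2111 in F7 and 1830 in F8. Its G level was 3935 in F3, 4491 in F4 and 2934 in F6, against 1774 in F1, 2755 in F2, 1651 in F7 and 2281 in F8. The lowest clutch with high survival and the highest with low survival, F6 and F2, were close in the G eggs, whereas a wide gap lay between the groups in the C eggs. The means were 3419 ± 187 against 1770 ± 290 in the C eggs (1.93-fold) and 3787 ± 789 against 2115 ± 506 in the G eggs (1.79-fold; SD, n = 3 and 4).

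ggcx showed a wider separation. The C level of ggcx was 1400 in F3, 1257 in F4 and 1679 in F6, against 243 in F1, 310 in F2, 272 in F7 and 373 in F8. The G level was 1146 in F3, 1689 in F4 and 904 in F6, against 323 in F1, 625.4 in F2, 282 in F7 and 374 in F8. The groups were apart in both pools, with F2 and F6 nearest to each other in the G eggs. The means were 1445 ± 215 against 299 ± 56.1 in the C eggs (4.83-fold) and 1246 ± 402 against 401 ± 154 in the G eggs (3.11-fold; SD, n = 3 and 4). Whether the differences in the 2 pools were unequal was not tested.

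unm_sa821 showed the same division, with wide spread between clutches in the G eggs. The C level of unm_sa821 was 474 in F3, 301 in F4 and 393 in F6, against 44.3 in F1, 57.2 in F2, 103 in F7 and 97.5 in F8. The G level was 660 in F3, 323 in F4 and 138 in F6, against 90.6 in F1, 44.2 in F2, 36.1 in F7 and 131 in F8. F6 and F8 nearly met in the G eggs, and no clutch crossed between the groups. The means were 389 ± 86.4 against 75.4 ± 29.0 in the C eggs (5.16-fold) and 374 ± 265 against 75.6 ± 44.3 in the G eggs (4.95-fold; SD, n = 3 and 4).

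In the G eggs, the exact permutation test of the means gave the smallest possible p of 0.0286 for each of insig2, ahcy, ggcx and unm_sa821. These pools come from the clutches that chose the 4 genes, and the 4 genes moved together, so this is no independent support in other females. In edgeR's quasi-likelihood test over all genes, the log2 difference in the G eggs was 0.84 ± 0.31 (SE) for insig2, 0.86 ± 0.31 for ahcy, 1.65 ± 0.42 for ggcx and 2.33 ± 0.64 for unm_sa821. Unadjusted p-values of that test ran from 0.00176 for ggcx to 0.0171 for insig2, and the adjusted p was 0.839 for each of the 4. In DESeq2's Wald test the adjusted p was 0.0669 for ggcx, 0.104 for unm_sa821, 0.488 for insig2 and 0.522 for ahcy. None of the 4 therefore passed in this pool by either tool, and edgeR called 0.00326% of all genes. Without 1 clutch at a time, the differences kept their sign, from 0.73 to 0.97 for insig2, 0.73 to 1.02 for ahcy, 1.38 to 1.96 for ggcx and 1.63 to 2.72 for unm_sa821. The matched egg marker ccnb1 had the opposite order of means, at 90095 ± 6829 (SD, n = 3) with high and 124635 ± 12558 (SD, n = 4) with low survival in the C eggs. In the G eggs it was at 106203 ± 20491 against 134369 ± 18121 with the same n. Genes could be named only through the study's lists, which were chosen by correlation with survival in these libraries. The order of ccnb1 is therefore a description, and its part in the results was not tested.

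**Figure D2:**
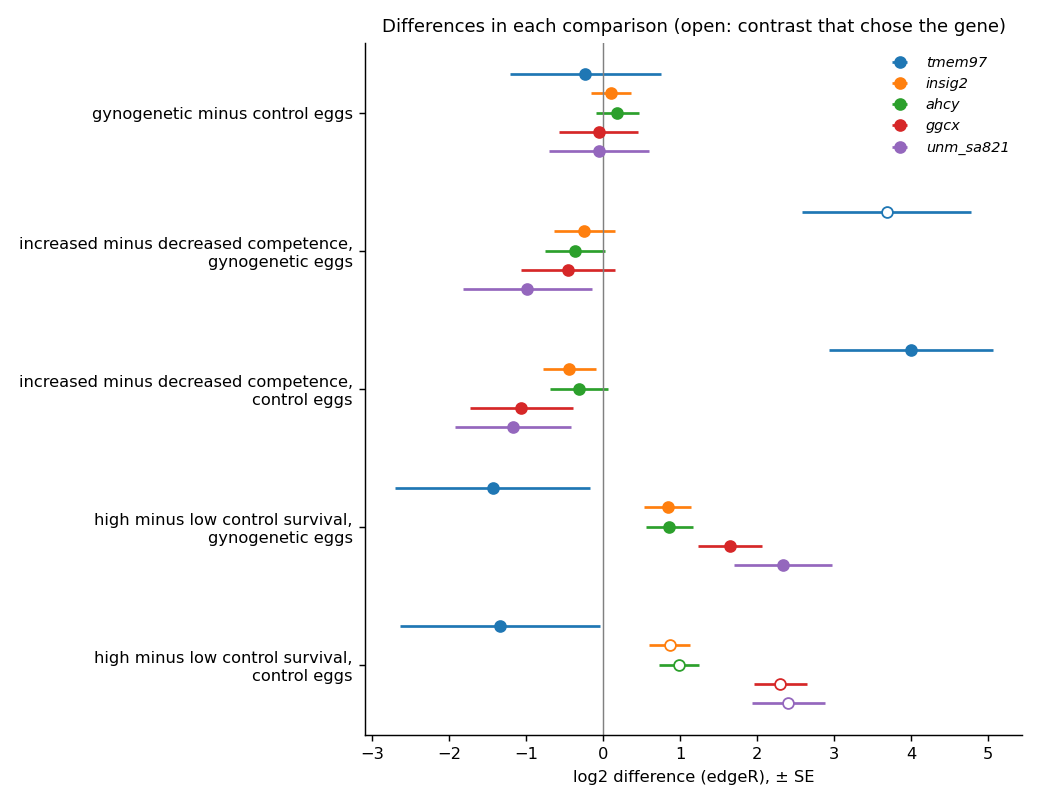
Log2 differences with their SE from edgeR (horizontal axis) for the 5 transcripts in the 5 comparisons (vertical axis), with open points for the contrast that chose a gene. tmem97 stands apart by competence in both pools (4.00 in the C eggs), and the other 4 lie above 0 by survival of the C embryos in both pools. None of the filled points, which were tested, passed edgeR's threshold.

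By competence for gynogenesis, insig2, ahcy, ggcx and unm_sa821 were lower on average in the clutches with increased competence, with overlapping groups in every case. Groups without overlap, in either direction, were found for 5.42% of all genes in the C and 3.11% in the G eggs. In the C eggs, the log2 difference was -0.44 ± 0.35 (SE) for insig2, -0.31 ± 0.38 for ahcy, -1.06 ± 0.67 for ggcx and -1.17 ± 0.76 for unm_sa821, with an edgeR adjusted p of 0.999 for each. The G eggs gave -0.25 ± 0.40 for insig2, -0.37 ± 0.39 for ahcy, -0.46 ± 0.61 for ggcx and -0.99 ± 0.84 for unm_sa821, with an edgeR adjusted p of 1 for each. Exact permutation p-values for the same 4 genes ranged from 0.2 to 0.486 in the C and from 0.486 to 0.686 in the G eggs. The division by competence shares its members with the division by survival of the C embryos except for F4 and F2. F4 was the one clutch of increased competence with high levels of these genes. The same 4 genes were chosen by survival of the C embryos in the C eggs of these clutches. Their lower means with increased competence are therefore not independent of that choice. Without F4, the edgeR difference of ggcx was -1.96 in the C and -1.49 in the G eggs. Without F3, that of unm_sa821 in the G eggs turned to 0.61.

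Correlations of these 4 genes with survival of gynogenotes did not pass the test and depended on single clutches. The genes were chosen on the C eggs of these clutches, so the sign of r is not independent of that choice. In the C eggs, r was -0.49 for insig2, -0.22 for ahcy, -0.39 for ggcx and -0.39 for unm_sa821, with exact permutation p-values from 0.253 to 0.618. Spearman's coefficient in these eggs ran from -0.57 for insig2 to 0.07 for ahcy, with exact permutation p-values of 0.2 and 0.906. The G eggs gave r of -0.38 for insig2, -0.37 for ahcy, -0.28 for ggcx and -0.38 for unm_sa821, with exact permutation p-values from 0.391 to 0.557 and adjusted p-values of 1. Spearman's coefficient there lay between -0.46 and -0.29, with exact permutation p-values from 0.302 to 0.556. Without the 2 clutches farthest from the median, r in the G eggs was 0.44 for insig2, 0.43 for ggcx, 0.23 for ahcy and -0.13 for unm_sa821. In the C eggs it was -0.0022 for insig2, 0.07 for ggcx, 0.17 for ahcy and -0.09 for unm_sa821, so the relation did not hold without those clutches. Leaving out F2 in the C eggs gave r of -0.78 for insig2, -0.63 for ahcy, -0.67 for ggcx and -0.72 for unm_sa821, and leaving out F3 gave -0.26, 0.07, -0.23 and -0.11. Leaving out F4 in the G eggs gave -0.75 for insig2, -0.74 for ahcy, -0.76 for ggcx and -0.46 for unm_sa821, and leaving out F7 gave -0.09, -0.10, -0.04 and -0.24. For unm_sa821 in the G eggs, r was -0.65 without F2 and 0.14 without F3. No r with survival of the C embryos is given for the G eggs, since that survival fell into separate sets of clutches.

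The comparison of G with C eggs asks whether the treatment as a whole went with another level of these maternal transcripts. G eggs received irradiated grayling sperm and C eggs trout sperm that was not irradiated. Irradiation, the species of the sperm and the shock, if it was given, cannot be told apart. Between the 7 G and the 7 C libraries none of the 5 passed the test. The edgeR log2 differences were -0.23 ± 0.98 (SE) for tmem97, 0.10 ± 0.26 for insig2, 0.18 ± 0.27 for ahcy, -0.06 ± 0.51 for ggcx and -0.06 ± 0.65 for unm_sa821. The adjusted p was 1 for each, and 0.184% of all genes passed.

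With the female as a replicate block, which takes out the differences between clutches, 5.04% of all genes passed and still none of the 5. The blocked edgeR differences were -0.17 ± 0.43 (SE) for tmem97, 0.09 ± 0.14 for insig2, 0.18 ± 0.15 for ahcy, 0.09 ± 0.18 for ggcx and -0.18 ± 0.26 for unm_sa821. Adjusted p-values ran from 0.670 for ahcy to 0.940 for tmem97. The sign of ggcx, close to 0 in both fits, was opposite in them.

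Within single clutches, the G and C levels of insig2, ahcy, ggcx and unm_sa821 were apart by more than counting error in some clutches, in both directions, with 1 library on each side and no replicate. For tmem97, the ratio of the G to the C level lay between 0.759 in F1 and 1.29 in F6, and the 95% counting interval included 1 in each of the 6 clutches with counts. For insig2, it ran from 0.839 in F7 to 1.35 in F4, and the interval excluded 1 in 6 of 7 clutches. For ahcy, it ran from 0.782 in F7 to 1.96 in F2, again with 6 of 7 intervals excluding 1. The highest ratios of ahcy and ggcx came from the same clutch, F2. For ggcx, the ratio was 2.02 in F2 and 0.538 in F6, with 5 of 7 intervals excluding 1. For unm_sa821, it was 2.05 in F1 and about 0.35 in F6 and F7 (0.352 and 0.351), with 4 of 7 excluding 1. These intervals were computed on halved counts, since counts came in steps of 2. They cover counting error only and include no variation between pools of eggs.

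**Figure D3:**
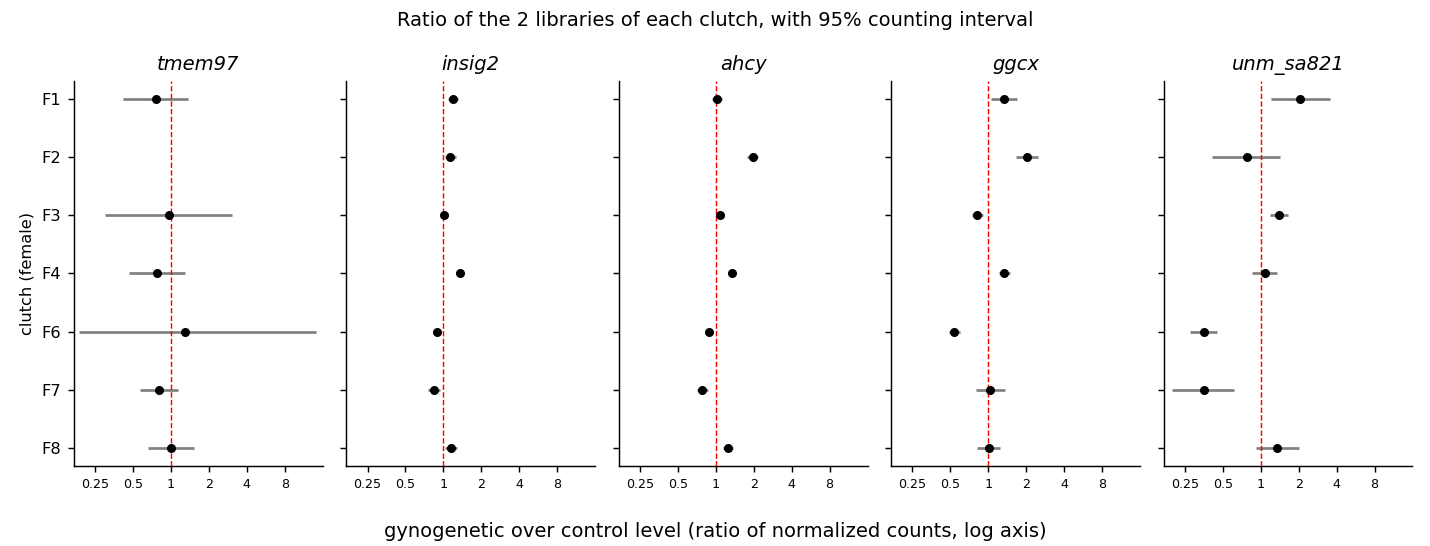
Ratio of the G to the C level (horizontal axis, log scale) for each clutch (vertical axis) and transcript, with 95% counting intervals as bars and a dashed line at 1. The intervals of tmem97 included 1 in all 6 clutches with counts and were wide at low counts (0.185 to 14.3 in F6). unm_sa821 was at 0.352 in F6 and 0.351 in F7.

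The depth of the libraries moved with these ratios. The G library held 1.41 times the assigned counts of the C library in F6 and 1.96 times in F7, the clutches in which both insig2 and ahcy were lower in the G eggs. The same depth ratio was 0.812 in F2 and 0.824 in F4, where both were higher. F8 went the other way, with a depth ratio of 1.20 and higher G levels of insig2 (1.15-fold) and ahcy (1.25-fold). Over the 7 clutches the log2 ratio of the level correlated with the log2 ratio of depth with r = -0.82 for insig2, -0.80 for ahcy, -0.69 for unm_sa821, -0.54 for ggcx and 0.11 for tmem97. Of the 24042 genes with a mean of at least 10 normalized counts, 3.23% had an r as low as that of insig2, 4.22% as that of ahcy, 9.36% as that of unm_sa821 and 17.8% as that of ggcx. The levels are already scaled for depth, and the part of depth in the ratios was not tested.

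**Figure D4:**
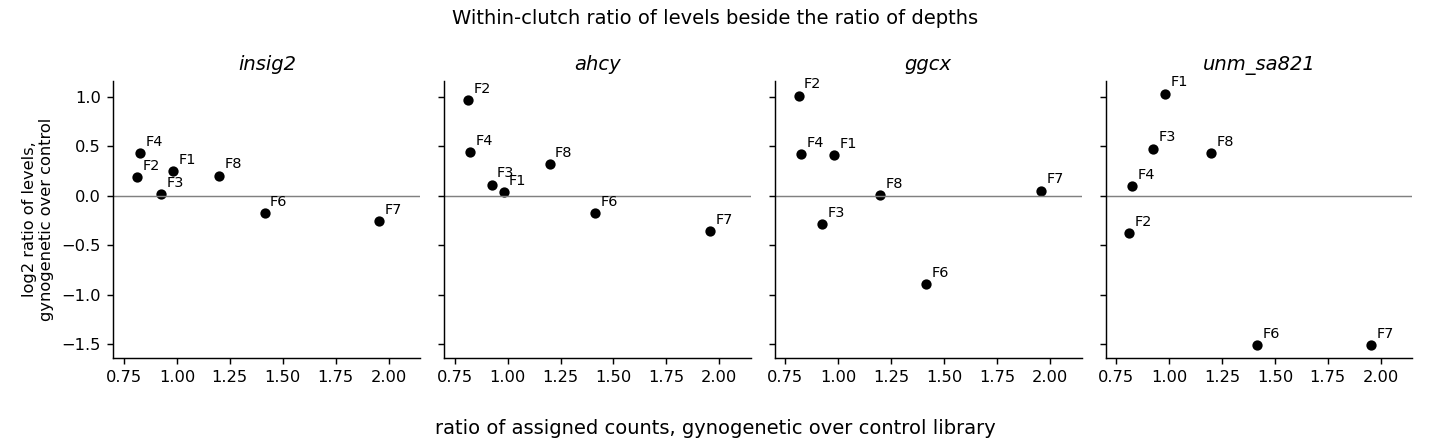
Log2 ratio of the G to the C level (vertical axis) of 4 transcripts against the ratio of assigned counts of the same libraries (horizontal axis), with a point for each clutch. F6 and F7, with depth ratios of 1.41 and 1.96, lie lowest for insig2, ahcy and unm_sa821, and F6 alone for ggcx.

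Differences between clutches repeated across the pools to an unequal degree. On the log2(normalized count + 1) scale, 99.5% of the variance of tmem97 lay between females, which placed it at percentile 99.9 of the 24042 genes. For insig2 and ggcx this share was 87.0% and for unm_sa821 78.5%, against a median of 52.8% over all genes. For ahcy it was 66.5%, percentile 65.1, so its 2 pools differed about as much as those of many other genes. The r between the C and G levels over the 7 females was 0.990 for tmem97, 0.863 for insig2, 0.800 for unm_sa821, 0.774 for ggcx and 0.757 for ahcy. The genes were chosen for following a trait of the clutch, so a high share between females is a description.

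insig2, ahcy, ggcx and unm_sa821 varied together. Over 7 C libraries the r between pairs of their log2 levels lay between 0.90 and 0.96, and over 7 G libraries between 0.74 and 0.98. The same choice by survival in the C eggs makes them alike there. The closest pair in the G eggs was ahcy and ggcx. With tmem97, the same 4 genes had r from -0.22 to 0.11 in the C and from -0.34 to 0.07 in the G eggs. The 2 members of sterol handling, tmem97 and insig2, had r = -0.21 in the C and -0.17 in the G eggs.

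The genes most like each member were sought over the 14 libraries among 24042 genes. For tmem97, they were ENSOMYG00000024317 (r = 0.92), ENSOMYG00000002572 (r = 0.91) and ENSOMYG00000075823 (r = 0.91), which have no symbol in the sources used here. In ENSOMYG00000075823 both F2 libraries were lowest, at 33.5 and 55.8 normalized counts against 462 or more elsewhere. For insig2, they were ENSOMYG00000002002 (r = 0.94), ENSOMYG00000028393 (r = 0.93) and ENSOMYG00000009735 (r = 0.93). ENSOMYG00000002002, which was also closest to unm_sa821 (r = 0.90), was at 0 in the 8 libraries of F1, F2, F7 and F8 and between 8.47 and 55.2 in the other 6. Its mean of 10.4 was just above the limit of 10, and it was picked for its likeness to genes with this division. A count of 0 allows up to 9.06 normalized counts in the C library of F7. F6, at 8.73 in the C and 8.47 in the G eggs, cannot be ordered against that library. For ahcy and for ggcx, the closest gene was ENSOMYG00000040451 (r = 0.94 and 0.95), and each was the second closest to the other (r = 0.93). Next for ahcy came cyp20a1, a member of the cytochrome P450 family (r = 0.93). ENSOMYG00000037193 was among the 3 closest to both ggcx (r = 0.92) and unm_sa821 (r = 0.90), and ENSOMYG00000069972 was near unm_sa821 (r = 0.90). The 2 libraries of a female share a clutch, so these 14 points are not independent.

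The pathways around these genes could be followed only in part, because the sources used here name only 0.724% of the detected genes. Those names come from the study's lists of genes correlated with survival, so they are no neutral sample of genes. Of 21 genes of cholesterol synthesis none was matched to a row, and of 24 genes of sterol sensing and traffic only insig2 and tmem97. The methionine cycle list was matched in 1 of 18 genes, ahcy, and the list of the vitamin K cycle and its carboxylated proteins in 1 of 16, ggcx. All 11 genes that the study assigned to small molecule metabolism were matched, among them insig2, ahcy and unm_sa821. In the clutches with high survival of the C embryos, 7 of the 11 were higher and 4 lower in each pool. In the G eggs 0 of the 11 passed edgeR's test, against 0.00326% of all genes, and 3 had an unadjusted p below 0.05, against 5.2% of all genes. Those 3 are insig2, ahcy and unm_sa821. The median log2 difference of the 11 was 0.76 in the C and 0.60 in the G eggs, against 0.02 and 0.01 over all genes. The study chose this list on these C libraries, and the G eggs came from the same clutches. Its directions, medians and unadjusted p-values are therefore descriptions in both pools and no independent evidence.

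CNP and COQ6, abundant members of that list, had lower means in the clutches with high survival, the opposite of insig2 and ahcy. CNP, a cyclic nucleotide phosphodiesterase, had 24199 ± 1006 normalized counts in the C eggs with high (SD, n = 3) and 30143 ± 2124 with low survival (SD, n = 4). COQ6, a monooxygenase of ubiquinone synthesis, had 5201 ± 434 against 7118 ± 566 with the same n. In the G eggs the log2 differences were smaller, at -0.13 ± 0.26 (SE) for CNP and -0.34 ± 0.30 for COQ6. The edgeR adjusted p there was 0.957 for CNP and 0.875 for COQ6.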

How the data were processed

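Polyadenylated RNA of 14 egg pools, 7 per treatment, was sequenced in pairs after Illumina Stranded mRNA preparation. The deposited values are counts per Ensembl gene, unnormalized, which the authors made with HTSeq 1.99.2 after quality control (FastQC 0.11.9), Flexbar trimming and mapping to OmykA_1.1 by STAR 2.7.5c. The sources used here do not state the strand setting. Summary lines, 64.6% to 67.6% of each file's total, were left out. Total depth after this was 34535902 to 67557305 counts, and precision is that of counting in steps of 2, plus variation between pools and clutches.

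The labels give treatment and replicate number. The female was read from the study's supplementary library list through the library number and checked against its normalized counts (lowest coefficient of variation of the ratio for another library, 0.217). Survival groups and rates came from the study, and the rates are not printed.

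Counts were normalized with DESeq2 1.42.0 size factors, and genes with a mean above 1 were kept. Comparisons used edgeR 4.0.16 (R 4.3.3) quasi-likelihood F-tests with TMM factors and Benjamini-Hochberg adjustment, called below 0.05. These comparisons were treatment over all libraries, and competence and survival of the C embryos within each pool of 7 libraries. Pearson's r used normalized counts and survival at the eyed stage, with two-sided exact permutations over 7 clutches. Group means were compared by two-sided exact permutation. Ratios carry exact 95% binomial counting intervals from halved counts. The scripts were tested on simulated data. Replicate numbers mark the female, so they pair the samples: deviations of the 2 libraries of a female correlated with r from 0.373 to 0.529, those of different females with at most 0.0548. Within a pool, p-values measure the spread between these clutches. The treatment test without the block counts the 2 libraries of a female as independent. With the block, its p rests on the spread left within clutches.

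Named genes were the 5 members, the 3 genes most like each of them over the 14 libraries with a pseudocount of 1 and a mean of at least 10, copies of a member in RefSeq, and up to 5 abundant genes of each list, of which 1 is not reported here. The members and lists were chosen with earlier results of these data known. Alternatives were other normalization, filters, DESeq2's Wald test, the block, leaving out a clutch, the study's clusters F4, F7 and F8 as groups, log2 values, survival at swim-up and, chosen after seeing the data, halved counts and the depth ratio.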

Additional observations from a re-analysis of the deposited data

Results flagged for a closer look

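Among the 30 groups of 4 or more libraries examined for a single library apart from the rest, 2 were noted, both for ggcx and both from clutch F4. In the C eggs of the 4 clutches with increased competence, ggcx was at 1257 normalized counts in F4, and the next highest library was at 373. The gap was 0.872 of the range, above Dixon's critical value of 0.829. In the G eggs of the same clutches, it was at 1689 in F4, the next at 374 and the gap 0.935 of the range. Chance gives such a mark in about 1 of 20 groups of a gene that was not chosen on these libraries. F4 was also the only one of these 4 clutches with high survival of the C embryos, the trait that chose ggcx. The G eggs came from the same clutches, so both marks are descriptions.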

How the results depend on the processing

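Of 344 values of the 5 genes with a test under the alternatives, 334 kept their direction and side of the threshold, 1 passed it and 9 changed sign. In the contrasts that chose the genes, compared by direction only and not by a test, 71 of 71 values kept their direction. The tested value that passed was tmem97 by competence in the C eggs with DESeq2, at 4.05. With the replicate block, the treatment difference of ggcx was 0.094 and 1557 genes passed in place of 57, while none of the 5 genes was called with or without the block, which was run for treatment only. With the study's clusters as groups, the competence difference of ggcx in the G eggs was 0.025, and 0 genes passed by competence in either pool. Without 1 clutch at a time, the treatment difference lay between -0.23 and 0.17 for ggcx and between -0.38 and 0.22 for unm_sa821. The competence difference of unm_sa821 in the G eggs lay between -1.75 and 0.61. In the same way r with survival of gynogenotes lay between -0.63 and 0.074 for ahcy in the C eggs and between -0.65 and 0.14 for unm_sa821 in the G eggs. The cause of these reversals was not tested.

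Counts of genes moved more, 33 of 83 by over 1.5 times. DESeq2 called 245 genes by treatment, 35 by competence in the G and 59 in the C eggs, and 69 by survival of the C embryos in the C and 43 in the G eggs, against 57, 1, 1, 3 and 1 by edgeR. Without the filter, edgeR called 4 genes by competence in the G and 2 in the C eggs and 3 by survival of the C embryos in the G eggs, and with filterByExpr it called 0 in the last. Without 1 clutch at a time, counts ran from 4 to 51 by treatment, 0 to 3 by competence in each pool, and 0 to 4 and 0 to 2 by survival of the C embryos in the C and G eggs.

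With 7 clutches, groups of 4 and 3 cannot give an exact p below 0.0286, and low counts limit tmem97 in F2, F3 and F6. Clutch, survival group and any trait of the female cannot be told apart, and both pools of a clutch share them.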
